A study of Macaca mulatta with 4 samples.

Results

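The dendritic cells described here are the 86 barcodes, of 6993 in the deposited tables, that carry the authors' dendritic cell label (spelled "Dentritic cell" in the files). All barcodes with that label were taken from the 4 libraries, and they were set against the cells labelled CD14+ monocyte (1243 cells), MS4A7+ monocyte (478 cells) and B cell (655 cells). The cells are peripheral blood mononuclear cells of rhesus macaque (Macaca mulatta), from whole blood, profiled by droplet single-cell RNA sequencing with a 10x Genomics 5′ kit, in a study of human pluripotent stem cell-derived islets transplanted into diabetic nonhuman primates. Each library is 1 time in that course. Pre-IS was taken before immunosuppression and before transplantation, Post-IS after immunosuppression and still before transplantation, and 4 wpt and 8 wpt at 4 and 8 weeks after transplantation. The labels do not name the immunosuppressive drugs, nor whether the 4 libraries come from the same animal. With 1 library per time there is no replicate, so no test between times was made, and every interval below covers counting error only.

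Dendritic cells take up antigen, load its peptides onto MHC class II and present them to T cells, and in transplantation they are studied as the cells that present graft antigens to the host. Their blood precursors depend on the cytokine FLT3 ligand and divide into conventional type 1 cells (cDC1), which cross-present antigen to CD8 T cells, conventional type 2 cells (cDC2), which mainly prime CD4 T cells, and plasmacytoid cells (pDC), which secrete type I interferon. Monocytes share many myeloid genes with them, and B cells share the antigen presentation genes, which is why these classes serve as the comparison.

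There were 30 dendritic cells in the Pre-IS library, 4 in Post-IS, 23 at 4 wpt and 29 at 8 wpt. As a share of all labelled cells this was 1.56% in Pre-IS (exact Clopper-Pearson 95% interval 1.05 to 2.21), 0.663% in Post-IS (0.181 to 1.69), 1.22% at 4 wpt (0.776 to 1.83), with 1.12% (0.754 to 1.61) for 8 wpt. These intervals all overlap, so no difference in the share of all cells was detectable at these cell numbers. Against the 331, 460, 519 and 411 monocytes of both labels in the same 4 libraries, in that order, the Post-IS library stood apart. Dendritic cells were 8.31% of dendritic cells and monocytes together in Pre-IS (5.68 to 11.7), 0.862% in Post-IS (0.235 to 2.19), 4.24% at 4 wpt (2.71 to 6.30), with 6.59% (4.46 to 9.33) for 8 wpt. Monocytes took more of that library: in Post-IS they were 54.6% (CD14+) and 21.7% (MS4A7+) of all cells, against 13.3% and 3.89% in Pre-IS. Both counts in the ratio differed, with 4 dendritic cells and 460 monocytes in Post-IS, against 30 and 331 in Pre-IS. The Post-IS library was also smaller, at 603 labelled cells against 1928. At 4 wpt the monocytes were more, at 519, beside 23 dendritic cells. The cause of the lower ratio was not tested. The Post-IS interval lay below the intervals of the other 3 libraries, while those of 4 wpt and 8 wpt each overlapped the Pre-IS interval. Post-IS was also the library in which the dendritic cells were shallowest. Their median UMI count (unique molecular identifiers, the count of captured RNA molecules) was 4326.5 in Pre-IS, 2908 in Post-IS, 7963 at 4 wpt and 5183 at 8 wpt.

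Over all 4 libraries the median was 5021 UMIs and 1704 genes per dendritic cell, with a range of 866 to 14421 UMIs, against medians of 2137 UMIs in CD14+ monocytes, 1457.5 in MS4A7+ monocytes and 1836 in B cells. Because of these depths, shares of cells with a UMI are also given after every cell was thinned to 1000 UMIs, which left out 1 shallower dendritic cell. Levels are UMIs summed over the cells of a label in a library, as counts per 1000000 UMIs of that sum (CPM). The sums rest on 135616 UMIs in Pre-IS, 12052 in Post-IS, 179945 at 4 wpt and 146478 at 8 wpt, so a gene with no UMI can still lie at up to 22.1, 248.9, 16.7 and 20.5 CPM in these libraries (3 counts). The 12052 UMIs of the Post-IS cells allow a description only, and comparisons of genes use the other 3 libraries. Of 25 barcodes found in more than 1 library, 0 were dendritic cells. No doublet caller was run, and 4 dendritic cells (2 in Pre-IS, 1 at 4 wpt, 1 at 8 wpt) held at least 2 genes of the T cell, B cell or platelet lists and may be doublets.

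The markers of dendritic cells are set beside the other labels gene by gene. How the labels were made is not given in the sources used here, and labels drawn from these expression values would by themselves set the genes apart, so levels against other labels are a description. FLT3, the receptor for the growth factor that dendritic cell precursors need, stood at 95.9 CPM in Pre-IS (13 UMIs), 0 in Post-IS, 188.9 at 4 wpt (34 UMIs) and 191.2 at 8 wpt (28 UMIs). In CD14+ monocytes it stood at 7.30, 20.1, 16.2 and 12.5 CPM in the same order of libraries. FLT3 was thus higher in dendritic cells in each library except Post-IS, where the 4 cells held no UMI. It was found in 41 of 86 dendritic cells (47.7%, or 12.9% after thinning), in 3.06% of CD14+ monocytes and in 0.0662% of T cells, which should lack it.

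FCER1A, the alpha chain of the high-affinity IgE receptor that cDC2 carry, ranked first among the genes above all 3 compared labels. It stood at 501.4 CPM in Pre-IS, 165.9 in Post-IS, 572.4 at 4 wpt and 436.9 at 8 wpt, in 51 of 86 cells (59.3%, or 34 of 85 cells after thinning). CD14+ monocytes held 7.16 CPM over all libraries, with a UMI in 1.13% of cells, and B cells held 0 UMIs in 655 cells, which allows a share of up to 0.458% of cells with a UMI at their median of 1836 UMIs. The 12 barcodes labelled Platelet, all from 4 wpt, were the exception, with 11 FCER1A UMIs in 8 of them.

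CD1C, which presents lipid antigens and marks cDC2, stood at 766.9 CPM in Pre-IS, 580.8 in Post-IS, 778.0 at 4 wpt and 983.1 at 8 wpt. It did not set dendritic cells apart from B cells, which held 1351.7 CPM over all libraries, and it was found in 76.7% of dendritic cells (51.8% after thinning), 29.7% of CD14+ monocytes (16.7%) and 80.9% of B cells (68.6%). T cells, as a label that should lack it, showed 4.84% (2.31% after thinning) at a median of 1883 UMIs. IRF8, a transcription factor that cDC1 and pDC need, stood at 545.7, 331.9, 344.6 and 409.6 CPM in the order of the libraries, against 75.0 CPM in CD14+ monocytes, 48.8 in MS4A7+ monocytes and 144.7 in B cells over all libraries. MAMU-DRA, the macaque gene for the MHC class II DR alpha chain, was found in 86 of 86 dendritic cells. Its level was 12388, 14603, 11409 and 12964 CPM in the same order, against 5635, 3691, 5276 and 6745 CPM in CD14+ monocytes, and its lowest dendritic value lay above the highest value of any other label with at least 4 cells.

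**Figure D1:**
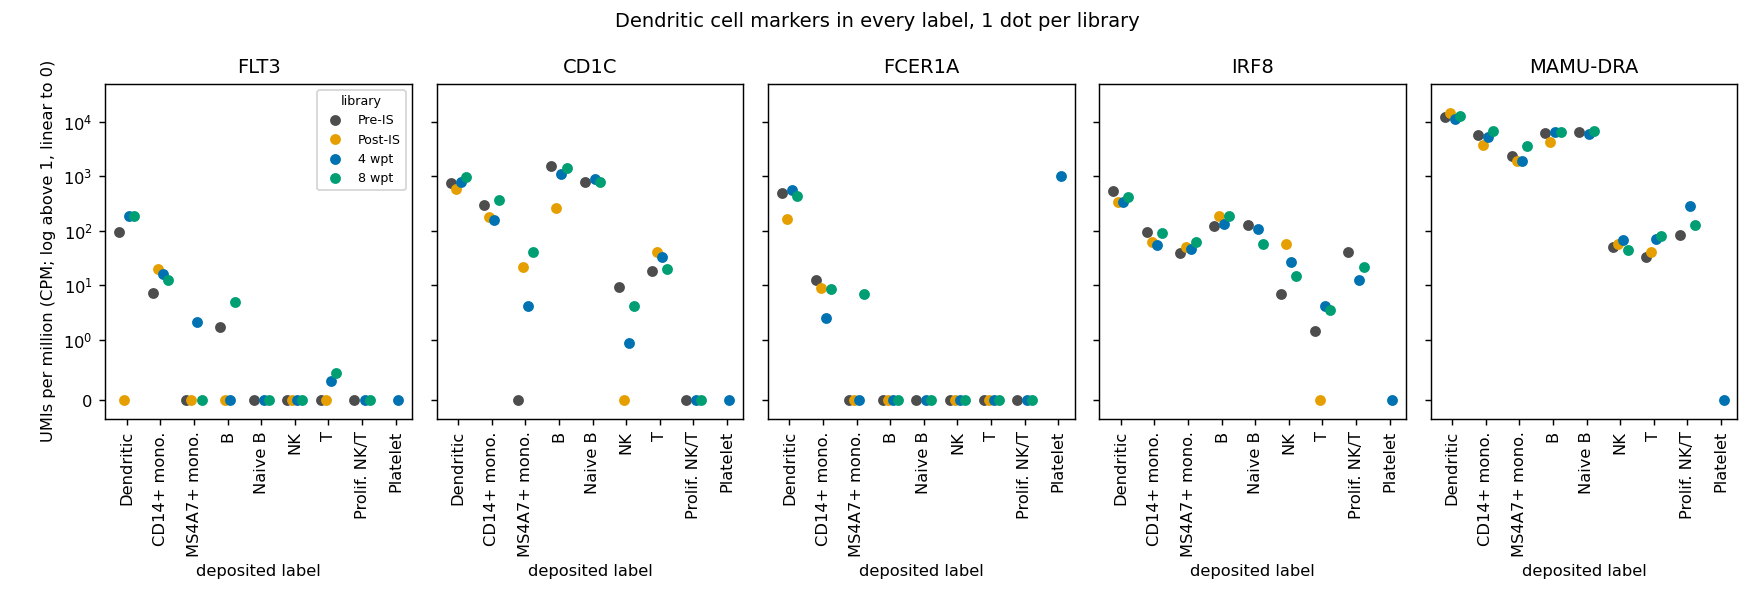
Level of FLT3, CD1C, FCER1A, IRF8 and MAMU-DRA (CPM, logarithmic above 1 and linear to 0) in the 9 deposited labels, with 1 dot per library and dots of fewer than 4 cells left out. Dendritic cells, on the left, stand above the monocyte labels for all 5 genes except FLT3 in Post-IS, which is at 0, while CD1C in B cells reaches 1576 CPM.

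Genes that mark other cells were low in them. The 12 B cell genes summed to 95.9 CPM in dendritic cells in Pre-IS, 83.0 in Post-IS, 61.1 at 4 wpt and 198.0 at 8 wpt, against 3677 to 7907 CPM in B cells, and 5 of them, PAX5, FCRL1 and EBF1 included, had no UMI. The 11 nonclassical monocyte genes summed to 88.9 to 280.2 CPM, against 5257 to 6847 CPM in MS4A7+ monocytes, and 7 were at 0, among them FCGR3, CX3CR1 and the complement genes C1QA, C1QB and C1QC. The 13 classical monocyte genes summed to more, 3568 to 5429 CPM, against 23500 to 26881 CPM in CD14+ monocytes, with S100A12 alone at 0. T cell genes reached at most 116.7 CPM and NK cell genes at most 44.2 CPM.

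The label held cells with different subset genes. A cDC1 core of 4 genes (CLEC9A, a receptor for dead cells; XCR1, a chemokine receptor; CADM1, an adhesion molecule; CLNK, a signalling adaptor) and a cDC2 core of 4 genes (CD1C, FCER1A, the lectin CLEC10A and CD1E) were counted in each cell. At least 2 cDC2 genes were found in 51 of 86 cells, at least 2 cDC1 genes in 11 cells (12.8%, exact 95% interval 6.56 to 21.7), and at least 2 of both in 0 cells. CD1C was found in 66 cells and FCER1A in 51, and all 51 cells with FCER1A also had CD1C. They are the same 51 cells that had at least 2 cDC2 genes. CLEC9A was found in 14 cells, of which 3 had CD1C and 1 had FCER1A. CLEC10A and CD1E contributed little, with 12 and 3 UMIs in all, as did CADM1 with 2 UMIs. Of the other 24 cells, 9 had 1 cDC2 gene only, 4 had 1 cDC1 gene only, 6 had 1 of each and 5 had none.

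By library, cells with at least 2 cDC1 genes numbered 5 in Pre-IS, 1 in Post-IS, 4 at 4 wpt and 1 at 8 wpt, and cells with at least 2 cDC2 genes numbered 17, 1, 13 and 20. The share of cDC1-core cells was 16.7% in Pre-IS (5.64 to 34.7), 17.4% at 4 wpt (4.95 to 38.8), with 3.45% (0.0873 to 17.8) for 8 wpt, and the intervals overlap. No cell of another label had UMIs of 2 cDC1 genes. The other labels are shallower, except the 81 proliferating NK/T cells, with a median of 5657 UMIs. The core depends on depth: after thinning, 4 of 85 dendritic cells still had 2 cDC1 genes. For pDC, 4 core genes could be counted. CLEC4C, SCT and PTCRA had 0 UMIs in the 86 cells and PACSIN1 had 1, and 0 cells had 2 of them. IL3RA and LILRA4, standard pDC genes that belong to the same core, have no named row and were not analysed here.

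**Figure D2:**
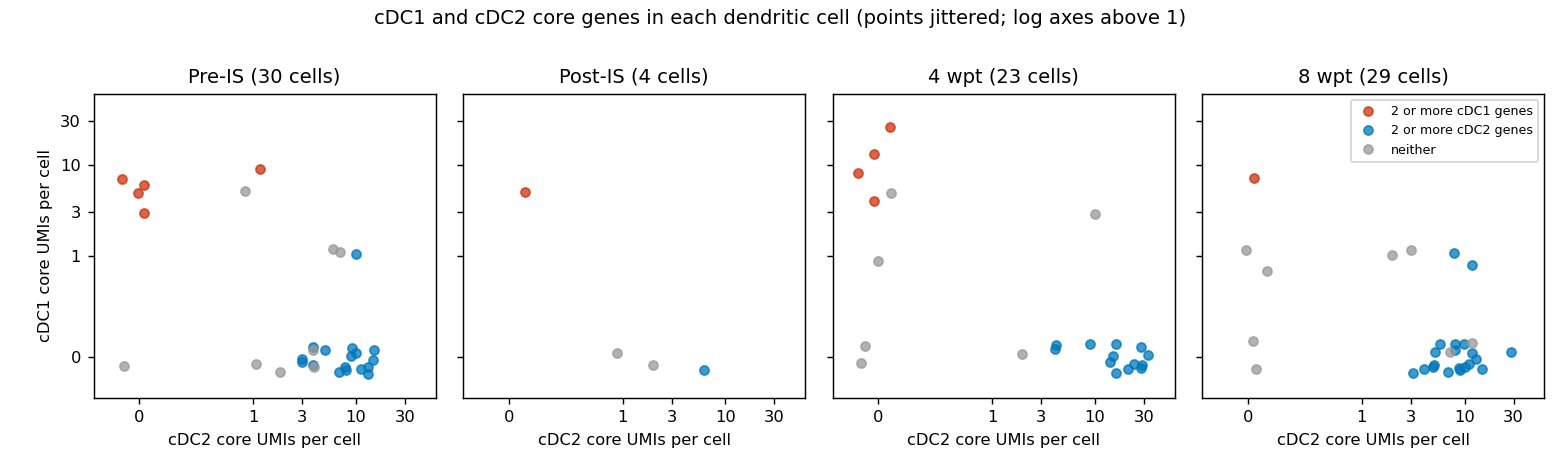
UMIs of the 4 cDC2 core genes (horizontal) and of the 4 cDC1 core genes (vertical) in each of the 86 dendritic cells, by library, on axes that are logarithmic above 1 and with points jittered. The 11 cells with at least 2 cDC1 genes lie along the vertical axis and the 51 cells with at least 2 cDC2 genes along the horizontal one.

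The 11 cDC1-core cells (74877 UMIs, median 6011 per cell) and the 51 cDC2-core cells (285439 UMIs, median 4899) were then compared over the genes that did not define them. This comparison was chosen after the data were seen. Of 1112 genes worth at least 10 UMIs in the smaller sum, 105 (9.44%) were at least 2-fold higher in cDC1-core cells and 123 (11.1%) at least 2-fold lower. The cells in a core pool 4 libraries and share their libraries with the other core, so the UMIs are not independent replicates and the intervals are too narrow by an unknown amount.

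Transcription factors of the cDC1 lineage were higher in the cDC1-core cells. IRF8 had 101 UMIs in 11 of 11 cDC1-core cells, against 34 UMIs in 22 of 51 cDC2-core cells, which is 1349 against 119.1 CPM and 11.3-fold (95% interval 7.61 to 17.2). By library it was 1692 against 163.4 CPM in Pre-IS, 1121 against 86.5 CPM at 4 wpt and 1011 against 131.0 CPM at 8 wpt, where the cDC1-core side is 1 cell with 6 UMIs of IRF8. In Post-IS, with 1 cell on each side, the counts were 4 against 0 UMIs. BATF3, its partner in cDC1 development, stood at 480.8 against 52.6 CPM (9.15-fold, 4.89 to 18.0). ID2, which represses E proteins and is needed for cDC1 in mice, stood at 347.2 against 14.0 CPM (24.8-fold, 8.60 to 97.7). The IRF8 level of the whole label is therefore an average over cells with high and low levels.

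Genes of antigen handling differed too. WDFY4, which mouse cDC1 require for cross-presentation, stood at 547.6 CPM in cDC1-core cells against 84.1 CPM in cDC2-core cells (6.51-fold, 3.84 to 11.3). CST3, the protease inhibitor cystatin C, stood at 17602 against 6653 CPM (2.65-fold, 2.46 to 2.84), and the lysosomal protease LGMN at 160.3 against 21.0 CPM. DNASE1L3, a secreted DNase, had 12 UMIs in 4 cDC1-core cells, against 2 UMIs in 2 cDC2-core cells, and the chemokine receptor CXCR3 had 10 UMIs in 7 cells against 1. The MHC class II genes CD74, CIITA and MAMU-DRA differed less than 2-fold. CD74, the invariant chain, had a ratio of 0.96 and the class II transactivator CIITA 1.13. MAMU-DRA was lower in cDC1-core cells, with a ratio of 0.77. FLT3 was 1.77-fold higher in cDC1-core cells, with an interval (0.97 to 3.11) that includes 1.

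Other genes were lower in the cDC1-core cells. S100A4, a calcium-binding protein, stood at 347.2 CPM in cDC1-core cells against 4137 CPM in cDC2-core cells, 11.9-fold lower (8.09 to 18.3), with 18 against 308 UMIs in Pre-IS, 0 against 3 in Post-IS, 8 against 519 at 4 wpt and 0 against 351 at 8 wpt. Signalling adaptors of immune receptors were lower as well, with FCER1G at 333.9 against 2077 CPM (6.22-fold lower) and TYROBP at 253.7 against 1422 CPM. The extracellular lectin FCN1, the proteoglycan VCAN, the inhibitory receptors CLEC4A and LILRB1, and ZEB2, a repressor that in mice counters ID2 and the cDC1 fate, had 0 UMIs in the 11 cDC1-core cells. In the 51 cDC2-core cells they had 91, 65, 68, 67 and 65 UMIs in that order. IRF4, a factor of cDC2 function, had 0 against 29 UMIs, and CSF1R, the receptor of the macrophage growth factor, 0 against 39. LILRB1 belongs to a family of near-identical genes whose reads the counting could split.

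**Figure D3:**
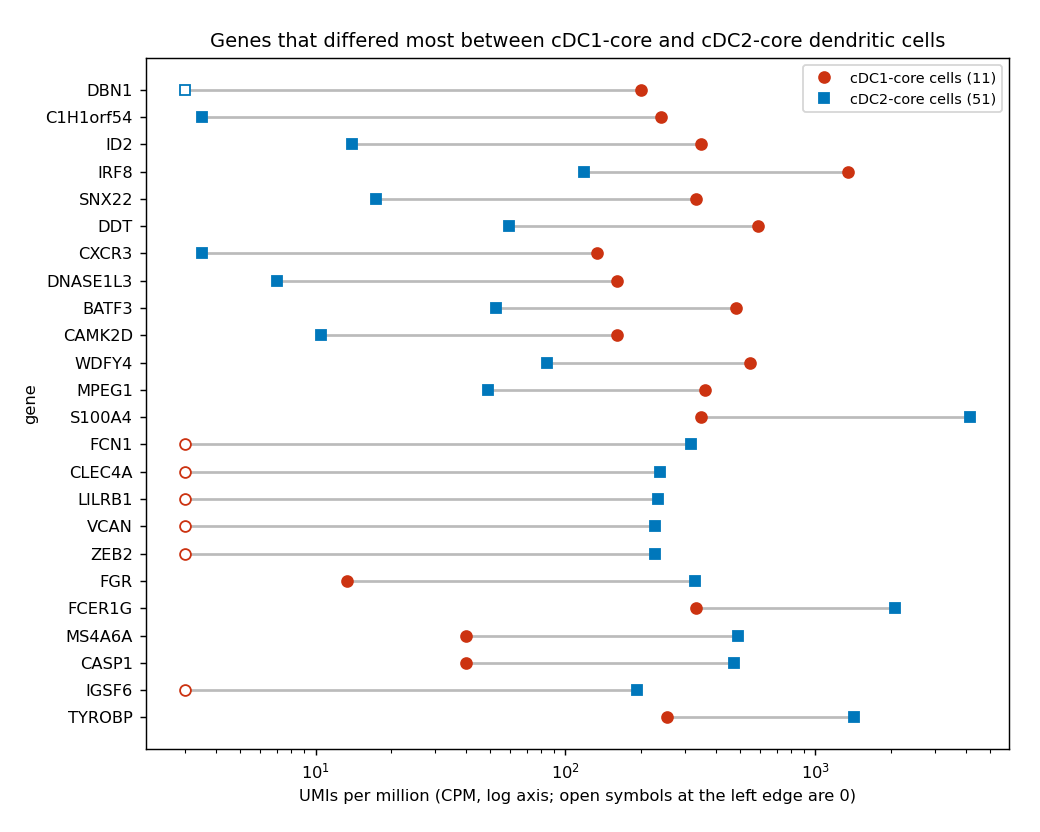
Level (CPM, log axis) of the 12 genes ranked highest and the 12 ranked lowest by the interval bound nearest to 1, in the 11 cDC1-core cells (circles) and the 51 cDC2-core cells (squares), with open symbols at the left edge for 0 UMIs. IRF8, at 1349 CPM in cDC1-core cells and 119.1 CPM in cDC2-core cells, and S100A4, at 347.2 and 4137 CPM, show the split in both directions.

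Against each other label, genes were called where they differed at least 2-fold in the same direction in each of the Pre-IS, 4 wpt and 8 wpt libraries, among genes worth at least 10 UMIs in the smaller sum. Over CD14+ monocytes 196 of 5722 genes (3.43%) were higher and 292 (5.1%) lower. Over MS4A7+ monocytes 281 of 6349 genes (4.43%) were higher and 645 (10.2%) lower, and over B cells 415 of 6383 (6.5%) were higher and 577 (9.04%) lower. The median log2 ratio of all genes was -0.06, -0.36 and -0.31 against these labels. Other scalings moved the MS4A7+ median to -0.08 or -0.07 and the share of calls that were higher from 30.3% to 47.1% (TMM), 48.7% (median of ratios) or 41.6% (library totals that leave out immunoglobulin, hemoglobin, mitochondrial and ribosomal genes). For B cells it moved from 41.8% to 50.7% or 53.0% under the first 2 of these, with medians of -0.14 and -0.09. A gene higher than in all 3 labels was rarer: 63 of 5405 (1.17%) were higher and 31 (0.574%) lower.

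The genes above all 3 labels were led by FCER1A, the actin cross-linker ACTN1, the lipoprotein receptor SCARB1 and FLT3. ACTN1 stood at 243.3 CPM in Pre-IS, 83.0 in Post-IS, 183.4 at 4 wpt and 198.0 at 8 wpt, against 6.69 to 12.8 CPM in CD14+ monocytes. Its log2 ratio over CD14+ monocytes was 3.93 ± 0.02 (SD over 3 libraries). SCARB1 stood at 177.0, 248.9, 144.5 and 102.4 CPM, against 2.23 to 14.6 CPM in CD14+ monocytes, with a log2 ratio of 3.36 ± 0.15. Neither gene came from a few cells, as they were found in 50 and 43 of the 86 dendritic cells.

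SLAMF7, an adhesion receptor of immune cells, stood at 88.5, 83.0, 144.5 and 95.6 CPM in dendritic cells and at 0, 0, 2.55 and 2.89 CPM in CD14+ monocytes, a log2 ratio of 4.47 ± 0.43. PKIB, an inhibitor of protein kinase A, was found in 53 cells at 164.5 CPM over all libraries, against 14.0 CPM in CD14+ monocytes, 1.16 in MS4A7+ monocytes and 0 in B cells. AXL, a receptor tyrosine kinase that marks a transitional dendritic cell in human blood, had 14 UMIs in 11 dendritic cells and 0 UMIs in all 3 other labels. Of these UMIs, 8 lay in 7 cells of the cDC2 core, so AXL alone does not name a transitional cell here. Of the 6 genes of the transitional cell's list, 2 were worth at least 10 UMIs against CD14+ monocytes, so the list is not described further. The cDC1 genes CLEC9A, XCR1, CLNK, DNASE1L3 and BATF3 were also among the 63, as were IRF8, the CGRP receptor gene CALCRL and the actin gene ACTG1.

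Of the 9 measured cDC1 genes, 6 were higher than in CD14+ monocytes, where 3.43% of all genes were, with a median log2 ratio of 2.89 against -0.06 for all genes. A gene without UMIs in the monocytes, such as CLEC9A, was measured only through the dendritic cells and could not come out lower. The list was also chosen with earlier results known, so the count is a description. CLEC9A stood at 147.5 CPM in Pre-IS, 248.9 in Post-IS, 188.9 at 4 wpt and 27.3 at 8 wpt, and no cell of the 3 other labels had a UMI. BATF3 stood at 132.7, 83.0, 172.3 and 88.8 CPM, against 9.62 to 20.1 CPM in CD14+ monocytes. The member that ran the other way was IDO1, the tryptophan-degrading enzyme, at 40.1 CPM over all libraries against 241.9 in CD14+ monocytes and 613.7 in MS4A7+ monocytes. Of the 8 measured cDC2 genes, only CD1C and FCER1A were higher than in CD14+ monocytes, while SIRPA, the receptor for CD47, was lower (log2 ratio -1.89 ± 0.82) and the list median was -0.13. ITGAX, the integrin CD11c that is often used to gate dendritic cells, stood at 67.5 CPM in dendritic cells, against 70.4 in CD14+ monocytes, 993.9 in MS4A7+ monocytes and 431.4 in B cells. It was at least 2-fold lower in dendritic cells than in MS4A7+ monocytes and B cells in each of the 3 libraries, and differed less than 2-fold from CD14+ monocytes in each.

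Among the transcription factors of dendritic cells, 5 of 11 measured genes were higher than in CD14+ monocytes (IRF8, BATF3, TCF4, SPIB and BCL11A) and none was lower, against 3.43% and 5.1% of all genes, with a median log2 ratio of 1.06. IRF8 had a log2 ratio of 2.38 ± 0.22 over CD14+ monocytes, 3.03 ± 0.51 over MS4A7+ monocytes and 1.53 ± 0.54 over B cells. SPI1, the myeloid master regulator PU.1, differed less than 2-fold from CD14+ monocytes in each library, at 438.7 CPM against 617.4 CPM over all libraries. TCF4, the E protein that drives the pDC fate, and SPIB stood at 63.3 and 61.2 CPM in dendritic cells, against 178.2 and 376.5 CPM in B cells, and SPIB met the call as lower there. KLF4 was 135.0 CPM in dendritic cells against 0 UMIs in B cells and 437.1 CPM in MS4A7+ monocytes.

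CD74 stood at 41101 CPM in Pre-IS, 44889 in Post-IS, 34060 at 4 wpt and 38962 at 8 wpt, against 24904, 17703, 21263 and 24315 CPM in CD14+ monocytes. Every dendritic library lay above every CD14+ monocyte library, and the log2 ratio was 0.69 ± 0.02 over the Pre-IS, 4 wpt and 8 wpt libraries, short of 2-fold. MAMU-DRA reached 1.06 ± 0.11, with 0.94 at 8 wpt, which kept it out of the call. Among 12 measured members of the list, 1 was called higher and 1 lower than in CD14+ monocytes, against 3.43% and 5.1% of all genes. MAMU-DOA, a chain of the DO heterodimer that restrains peptide loading, was the higher one, at 139.2 against 23.4 CPM over all libraries. CTSS, the protease that degrades the invariant chain, was lower, at 599.0 against 1625 CPM. Over MS4A7+ monocytes 5 of 12 were higher and 2 lower, against 4.43% and 10.2% of all genes. Over B cells MAMU-DRB1, MAMU-DPA and LGMN were higher and MAMU-DOB lower, against 6.5% and 9.04% of all genes. The MAMU class II genes are a family of similar copies, and reads may be split between them, MAMU-DRB1 above all.

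**Figure D4:**
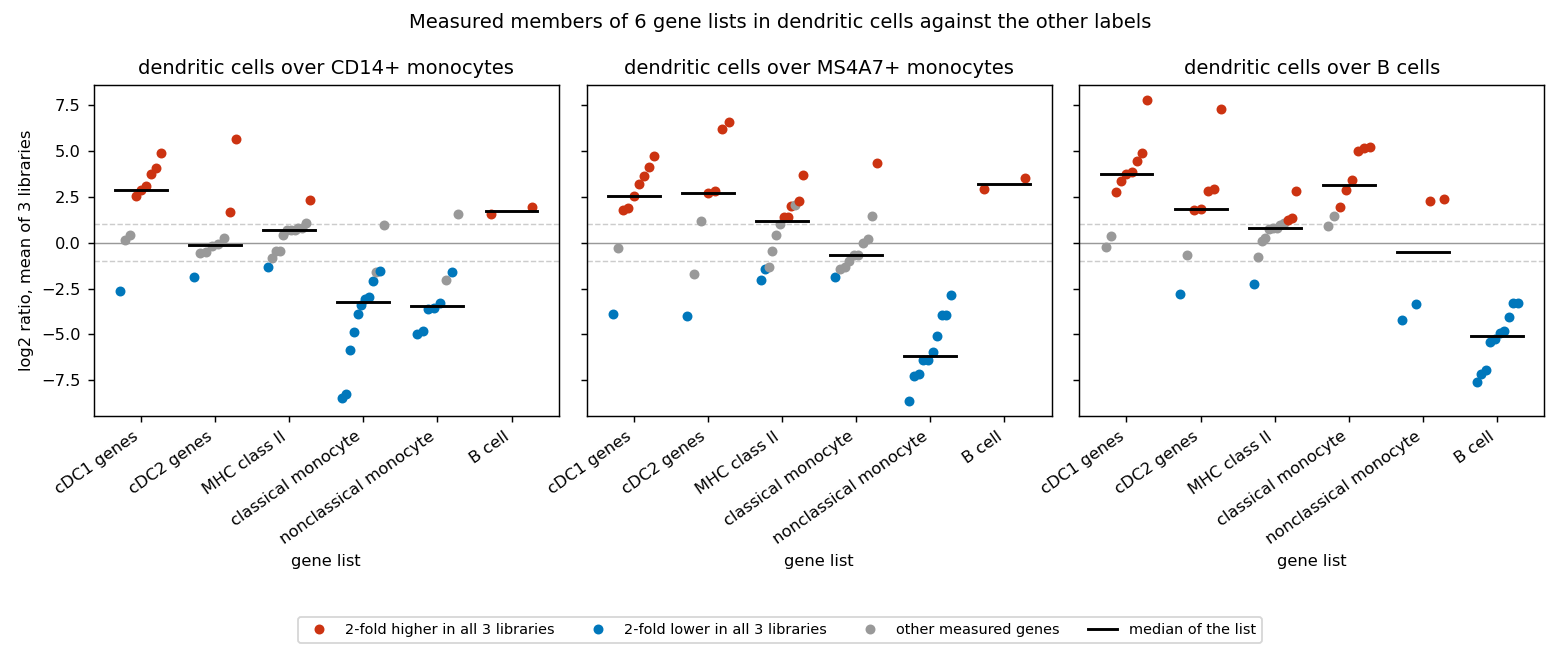
Log2 ratio of dendritic cells over CD14+ monocytes, MS4A7+ monocytes and B cells (mean over the Pre-IS, 4 wpt and 8 wpt libraries) for the measured members of 6 gene lists, with dashed lines at 2-fold and black bars at list medians. The median of the cDC1 list is 2.89 over CD14+ monocytes, that of the classical monocyte list -3.22, and that of the B cell list -5.09 over B cells.

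The classical monocyte genes were lower than in CD14+ monocytes in 10 of 12 measured members, against 5.1% of all genes, with a median log2 ratio of -3.22 (-3.00 with genes at 0 UMIs set to their bound). Because CD14, a member of the list, names the monocyte label, this count is a description. CD14, the lipopolysaccharide co-receptor, had 2 UMIs in Pre-IS, 0 in Post-IS, 5 at 4 wpt and 0 at 8 wpt, or 14.8 CPM over all libraries against 726.1 CPM in CD14+ monocytes. S100A9 had 5 UMIs in all, against 2377 CPM in CD14+ monocytes. S100A8, the other calprotectin subunit, stood at 7.37, 0, 172.3 and 0 CPM, against 6029 to 7608 CPM, and 26 of its 32 UMIs came from 1 cell at 4 wpt. Dendritic cells did hold part of the monocyte programme. LYZ, lysozyme, stood at 3834, 2240, 4235 and 3018 CPM (against 10420 in CD14+ monocytes over all libraries), FCN1 at 208.8 against 1332 CPM and VCAN at 143.4 against 1263 CPM.

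Against MS4A7+ monocytes all 10 measured nonclassical monocyte genes were lower, where 10.2% of all genes were. Of the 11 listed genes 7 had 0 UMIs in dendritic cells. Such genes are measured only through the monocytes and cannot come out higher, so the count is a description. FCGR3, the low-affinity IgG receptor CD16, had 0 UMIs in dendritic cells and 1469 CPM in MS4A7+ monocytes, at least 232-fold lower, with the floor of 3 counts taken over all libraries. On the same floor CX3CR1, the fractalkine receptor, was at least 83.0-fold lower, C1QB at least 68.0-fold lower and the cell cycle inhibitor CDKN1C at least 64.7-fold lower. CFD, complement factor D, stood at 109.7 CPM in dendritic cells, against 3962 in CD14+ monocytes and 16548 in MS4A7+ monocytes. On the higher side were CCR2, the receptor for monocyte chemoattractant protein, at 149.8 against 3.49 CPM, the actin-severing gelsolin GSN at 322.7 against 3.49 CPM, and MS4A6A at 356.5 against 5.81 CPM.

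Against B cells all 10 measured B cell genes were lower, where 9.04% of all genes were. Of the 12 listed genes 5 had 0 UMIs in dendritic cells and could not come out higher, so this count too is a description. MS4A1, the gene of CD20, had 9 UMIs in 5 cells, at 19.0 against 1969 CPM. Among the 415 higher genes CPVL, a carboxypeptidase, stood at 943.8, 1079, 678.0 and 593.9 CPM with no UMI in B cells, CST3 at 10368, 16346, 7008 and 6226 CPM against 16.6 to 39.6 CPM, and FCER1G at 1692 CPM over all libraries against 11.4 CPM. CALCRL stood at 301.6 CPM with 0 UMIs in B cells.

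Lists of receptors and of induced genes were counted against CD14+ monocytes, where 3.43% of all genes were higher and 5.1% lower and the median log2 ratio of all genes was -0.06. Of 15 measured pattern recognition genes 0 were higher and 2 lower, a count near these shares. The lower ones were TLR4, the lipopolysaccharide receptor, at 16.9 against 175.9 CPM, and CLEC7A, the beta-glucan receptor, at 31.6 against 113.3 CPM. Of 17 measured cytokine and chemokine receptors 2 were higher (FLT3 and CXCR3) and 6 lower. These include CSF1R at 99.1 against 421.6 CPM and the granulocyte colony-stimulating factor receptor CSF3R at 6.33 against 214.5 CPM. Of the 9 measured maturation and co-stimulation genes 0 were called, again near the shares of all genes, with a median of 1.26. These genes include CCR7, LAMP3, FSCN1, MARCKSL1 and CD83, whose UMIs at 4 wpt lay mostly in 1 cell described below. How far that cell moves the median was not tested. CD86, a co-stimulatory ligand, stood at 154.8 CPM in Pre-IS, 83.0 in Post-IS, 122.3 at 4 wpt and 54.6 at 8 wpt, against 84.7 to 102.0 CPM in CD14+ monocytes, so the groups overlap. Of 14 measured interferon-stimulated genes 0 were higher and 2 lower, ISG20 among them, with a median of -0.65. That count too is near the shares of all genes.

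Between libraries the dendritic cells were compared over sums from 23 to 30 cells, and all 3 comparisons share libraries. At 4 wpt 160 of 2086 genes (7.67%) were at least 2-fold higher than in Pre-IS and 141 (6.76%) lower. At 8 wpt 142 of 2156 genes (6.59%) were higher than in Pre-IS and 125 (5.8%) lower, and 191 of 2336 (8.18%) were higher and 156 (6.68%) lower than at 4 wpt. Under TMM 36.3% of the calls at 8 wpt against Pre-IS were higher, against 53.2% as reported. Genes at the 10 UMI minimum can pass 2-fold through counting error alone. After thinning to 1000 UMIs per cell, 7 of the 160 and 2 of the 141 were still called. For 8 wpt over Pre-IS 6 of the 142 and 1 of the 125 were, and for 8 wpt over 4 wpt 1 of the 191 and 4 of the 156. The thinned sums are smaller and the 10 UMI minimum was kept, so many of these genes could no longer be measured. A call lost in this way says little about the ratio of that gene.

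The 5 marker genes stayed within 2-fold in all 3 comparisons. FLT3 came nearest, at 1.97-fold higher at 4 wpt (1.01 to 4.07) and 1.99-fold higher at 8 wpt (1.00 to 4.19) than in Pre-IS. MHC class II was level as well, with 0 of 12 genes higher and 1 lower at 4 wpt against Pre-IS (LGMN, 6 against 12 UMIs; 7.67% and 6.76% of all genes) and 0 of 12 either way at 8 wpt against Pre-IS (6.59% and 5.8% of all genes). MAMU-DRA had ratios of 0.92 (0.86 to 0.98) at 4 wpt and 1.05 (0.98 to 1.12) at 8 wpt, both against Pre-IS.

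The genes ranked highest by their interval bound at 4 wpt over Pre-IS included genes of dendritic cell maturation. CD83, a maturation marker, had 64 UMIs at 4 wpt against 3 in Pre-IS (16.1-fold, 5.26 to 80.0). BIRC3, an apoptosis inhibitor induced by NF-kB, had 53 UMIs against 4 (9.99-fold, 3.68 to 38.0). UBD, a ubiquitin-like protein, FSCN1, the actin bundler fascin, and CCR7, the receptor that guides mature dendritic cells to lymph nodes, had 32, 22 and 18 UMIs at 4 wpt and 0 in Pre-IS. With the floor at 3 counts in the Pre-IS library, they were at least 8.04-fold, 5.53-fold and 4.52-fold higher.

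These UMIs came from a single cell. A 4 wpt cell of 7854 UMIs held 61 of the 64 CD83 UMIs, 50 of the 53 BIRC3 UMIs and all of those of UBD, FSCN1 and CCR7. It also held 11 UMIs of LAMP3, a lysosomal protein of mature dendritic cells, 4 of the chemokine CCL22 and 16 of MARCKSL1. It had 0 UMIs of the cDC1 core, of CD1C and of FCER1A, and 2 UMIs of 1 other cDC2 core gene. Without this cell CD83 had 3 UMIs at 4 wpt and 3 in Pre-IS, a ratio of 0.79 (0.11 to 5.88), BIRC3 had 3 against 4, and UBD, FSCN1 and CCR7 had none in either. The excess at 4 wpt is thus that of 1 cell in 23. It held 132 UMIs of CCR7, LAMP3, FSCN1, CCL22, MARCKSL1 and CD83 together, 6 genes picked after their values were seen, and the next highest of the 86 cells held 3.

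**Figure D5:**
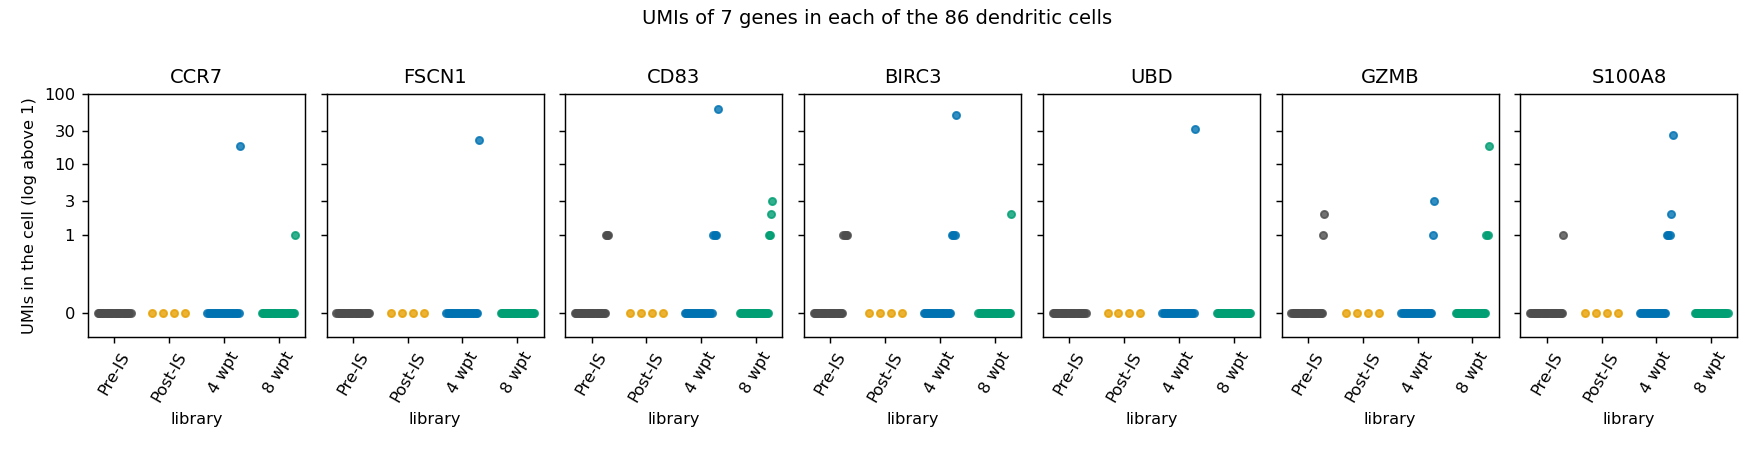
UMIs of CCR7, FSCN1, CD83, BIRC3, UBD, GZMB and S100A8 in each of the 86 dendritic cells (vertical axis logarithmic above 1), by library. For the first 5 genes 1 cell at 4 wpt carries nearly all UMIs, for GZMB 1 cell at 8 wpt carries 18, and for S100A8 1 cell at 4 wpt carries 26.

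Other differences rested on single cells in the same way. GZMB, granzyme B, which in blood dendritic cells marks pDC, had 20 UMIs at 8 wpt against 3 in Pre-IS (6.17-fold, 1.83 to 32.4), and 18 of the 20 lay in 1 cell. That cell, of 2203 UMIs, also held 4 UMIs of TCF4, 4 of IRF8, 3 of JCHAIN and 2 of IRF7, all known as genes of pDC, with 12 of MAMU-DRA and no cDC1, cDC2 or pDC core gene. Without it GZMB was no longer higher at 8 wpt. S100A8 had 31 UMIs at 4 wpt against 1 in Pre-IS, and the cell with 26 of them, of 7458 UMIs, held 3 cDC2 core genes together with 3 UMIs of CD14 and 6 of VCAN. LILRA3 had 17 UMIs at 8 wpt against 2 in Pre-IS, with 14 in 1 cell, and belongs, like LILRB1, to a family of similar genes. Without the 4 possible doublets GZMB had 20 against 1 UMIs (18.1-fold, 2.89 to 748) and LILRA3 17 against 1 (15.3-fold, 2.40 to 641).

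FOS, an immediate early gene that responds to stimulation and to cell handling, differed across many cells. It had 109 UMIs in 21 of 30 cells in Pre-IS, 11 UMIs in Post-IS, 33 UMIs in 15 of 23 cells at 4 wpt and 50 UMIs in 14 of 29 cells at 8 wpt, or 803.7, 912.7, 183.4 and 341.3 CPM. It was 4.38-fold lower at 4 wpt (2.95 to 6.68) and 2.35-fold lower at 8 wpt (1.67 to 3.36) than in Pre-IS. CD14+ monocytes had the same order of libraries, with 1961 CPM in Pre-IS, 4741 in Post-IS, 437.2 at 4 wpt and 589.8 at 8 wpt. The other 4 measured immediate early genes did not pass 2-fold at 4 wpt, and the list median was -0.47.

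FKBP5, a gene induced by glucocorticoids, had 5 UMIs in 5 cells in Pre-IS, 1 UMI in Post-IS, 21 UMIs in 14 cells at 4 wpt and 6 UMIs in 6 cells at 8 wpt. It was 3.17-fold higher at 4 wpt than in Pre-IS (1.16 to 10.7) and 2.85-fold lower at 8 wpt than at 4 wpt (1.11 to 8.63). The 3 other labels were also higher at 4 wpt than in Pre-IS, with 136.1 against 76.6 CPM in CD14+ monocytes, 245.4 against 50.0 CPM in MS4A7+ monocytes and 80.8 against 31.1 CPM in B cells. Of the 9 measured glucocorticoid-induced genes at 4 wpt against Pre-IS, 2 were higher (FKBP5 and BIRC3, the second through 1 cell) and 2 lower (PER1, and TXNIP at 50 against 82 UMIs), against 7.67% and 6.76% of all genes, with a list median of -0.52. IL10RA, the interleukin-10 receptor, had 30 UMIs at 4 wpt and 30 at 8 wpt, against 10 in Pre-IS, which is 2.26-fold (1.08 to 5.18) and 2.78-fold (1.32 to 6.37) higher. In CD14+ monocytes it stood at 156.5 CPM at 4 wpt, 128.0 at 8 wpt and 144.1 in Pre-IS.

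Genes that were lower at 8 wpt than in Pre-IS included FCN1, with 11 UMIs in 6 cells against 47 UMIs in 12 cells (4.61-fold, 2.36 to 9.87), and the interferon-induced membrane protein IFITM2, with 7 UMIs in 3 cells against 30 in 7 (4.63-fold, 1.99 to 12.5). CD86 had 8 UMIs at 8 wpt against 21 in Pre-IS (2.84-fold lower, 1.21 to 7.40). CLEC9A had 4 UMIs in 3 cells at 8 wpt against 20 in 5 cells (5.40-fold lower, 1.81 to 21.7). It is a gene of the cDC1 core, so this is not a separate observation from the core counts. Cells with at least 1 core gene numbered 7 at 8 wpt and 9 in Pre-IS. That mark is loose, since 9.46% of NK cells and 4.27% of B cells over all libraries also had at least 1 core gene. Among the higher genes at 8 wpt, NGFR, the nerve growth factor receptor, had 28 UMIs in 14 cells against 5 UMIs in 3 cells (5.18-fold, 1.98 to 17.2), and EPB41L3, a cytoskeletal protein, had 17 UMIs in 13 cells against 2 UMIs (7.87-fold, 1.87 to 70.2). PDCD10, a signalling scaffold, had 23 UMIs in 18 cells against 4 UMIs in 2 cells (5.32-fold, 1.82 to 21.2). These 3 were spread over many cells, with at most 5, 2 and 3 UMIs in any 1 of them. Without the 4 possible doublets NGFR had 28 against 2 UMIs (12.6-fold, 3.19 to 109), EPB41L3 15 against 1 (95% interval of the ratio 2.08 to 570) and IFITM2 7 against 19 (3.01-fold lower).

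The 28 interferon-stimulated genes in the files summed to 796 CPM in Pre-IS, 664 in Post-IS, 1089 at 4 wpt and 1154 at 8 wpt. At 4 wpt and at 8 wpt 0 of 6 measured genes passed 2-fold against Pre-IS, with median log2 ratios of 0.57 and 0.33 against -0.08 and 0.00 for all genes. IFI6 had 40 UMIs at 8 wpt against 18 at 4 wpt (2.73-fold, 1.53 to 5.06), and it was the only list member higher there, while EPSTI1 was lower at 4 against 13 UMIs. Of the NF-kB and inflammatory genes 0 of 3 measured passed 2-fold in any of the 3 comparisons, and of the proliferation genes 0 of 1.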

How the data were processed

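The authors deposited, per library, a table of raw UMI counts and a label for each barcode. The build Mmul_10 and the tools Seurat 3.2.3 and Cell Ranger 3.1.0 are listed, per the submitters' processing notes, while cell filters and how labels were made are not given in the sources used here. The tables hold 15354 gene rows, where 400 identifiers took a symbol from the reference table and 2159 kept none. UMIs were summed per label and library and scaled to CPM (Python 3.11.15, numpy 2.4.6, scipy 1.17.1, pandas 2.3.3). Log2 ratios carry an offset of 0.5 UMIs at the smaller total. Intervals are exact (Clopper-Pearson, or conditional binomial for ratios of UMIs). TMM (edgeR 4.0.16) and median of ratios (DESeq2 1.42.0) served as alternative scalings, with no test. The calling step was tested on simulated data.

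Over each label, genes named were up to 10 higher and 6 lower by the smallest ratio in 3 libraries, and between libraries up to 6 either way by the interval bound nearest to 1, besides the markers and list members. Ribosomal, mitochondrial, hemoglobin, immunoglobulin, T cell receptor and unnamed genes were passed over. Members, lists and rules were chosen with earlier results of these data known. The cores' comparison, and settings without single cells or cDC1-core cells, were added after seeing the data. UMIs of 1 cell are not independent replicates of a time.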

Additional observations from a re-analysis of the deposited data

How the results depend on the processing

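No paired analysis was possible because each time is 1 library and the labels carry no replicate numbers. Counts of genes past 2-fold are given below as higher and lower. Thinned counts keep the 10 UMI minimum on smaller sums, so genes at low levels cannot be called in them. Against the other labels, thinning each cell to 1000 UMIs left 45 and 95 over CD14+ monocytes, 92 and 226 over MS4A7+ monocytes and 124 and 142 over B cells, of which 32 and 84, 75 and 185, and 110 and 126 were also called without thinning. A minimum of 20 UMIs gave 124 higher over CD14+ monocytes, and an offset of 2 UMIs gave 125 there and 187 higher over MS4A7+ monocytes. Median of ratios gave 424 lower over MS4A7+ monocytes, and no minimum gave 868 lower over B cells. Leaving out 1 library at a time gave 202 to 232 higher and 313 to 342 lower over CD14+ monocytes, 255 to 353 and 692 to 953 over MS4A7+ monocytes, and 386 to 446 and 610 to 675 over B cells.

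Between libraries the counts depended on the minimum. At 4 wpt over Pre-IS they were 515 and 391 with a minimum of 5 UMIs, 32 and 36 with 20, 1536 and 1438 with none, and 26 and 30 thinned. At 8 wpt over Pre-IS they were 459 and 409, 33 and 25, 1422 and 1631, and 31 and 26 in the same order. At 8 wpt over 4 wpt they were 522 and 465, 36 and 31, 1617 and 1302, and 31 and 18. Of the thinned calls at 8 wpt, 6 and 1 over Pre-IS and 1 and 4 over 4 wpt were also called without thinning. Weighting each cell equally gave 310 and 215 at 4 wpt over Pre-IS and 315 lower at 8 wpt over 4 wpt, where an offset of 2 UMIs gave 126 higher. At 8 wpt over Pre-IS, TMM gave 90 higher and the cells without the cDC1 core gave 78 higher, and the share of calls that were higher was 53.2% as reported, 36.3% under TMM and 42.9% without the cDC1 core.

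Cells with at least 2 cDC1 genes after thinning were 1 in Pre-IS, 0 in Post-IS, 2 at 4 wpt and 1 at 8 wpt, and with 1 gene sufficing 9 in Pre-IS, 7 at 4 wpt and 7 at 8 wpt. For cDC2, thinning left 8 in Pre-IS, 6 at 4 wpt and 10 at 8 wpt, and 1 gene sufficing gave 3 in Post-IS. For pDC, 1 gene sufficing gave 1 cell at 8 wpt. Log2 ratios that changed sign were, thinned at 4 wpt over Pre-IS, PSMG1 at 0.24 and PARVG at 0.30. Without the 4 wpt cell rich in maturation genes, CD83 was at -0.29 and BIRC3 at -0.65 over Pre-IS, and CD83 at 1.30 for 8 wpt over 4 wpt. Without the 8 wpt cell rich in GZMB, GZMB was at -0.56 over Pre-IS and -0.57 over 4 wpt. Without the cDC1-core cells, CLEC9A was at 1.98 for 8 wpt over Pre-IS. CLEC9A is a core gene and all 5 Pre-IS cells with it were core cells. Their removal left no CLEC9A UMI in Pre-IS, so this change was fixed by the choice of cells. The cause of the other changes was not tested. In all, 180 alternative values of counts and shares stayed within 1.5 times or within the interval of the reported value, and 52 did not. Ratios of single genes over another label were less stable. Of 57 such ratios, named genes and markers together, 45 moved by at least their SD over 3 libraries when thinned. With an offset of 2 UMIs 40 did, so the size of these ratios depends on depth and offset. Of those past 2-fold, 0 changed sign.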

Other observations

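Some cells labelled CD14+ monocyte carried cDC2 core genes. At least 2 of CD1C, FCER1A, CLEC10A and CD1E were found in 48 of 1243 such cells, at a median of 3725 UMIs. Over these 48 cells CD1C stood at 534 CPM, CLEC10A at 178 CPM in 37 cells and FCER1A at 86.8 CPM in 11 cells. The 51 cDC2-core dendritic cells stood at 1163, 42.0 and 830 CPM for the same genes. These genes chose both sets of cells, and the label may itself rest on CD14 and like genes, so the levels are a description. CD14 stood at 504 CPM in the 48 cells, 24.5 CPM in the cDC2-core dendritic cells and 743 CPM in the other 1195 CD14+ monocytes. S100A8 stood at 3681, 105 and 7158 CPM in the same order. MAMU-DRA was 7606 CPM in the 48 cells and 13407 CPM in the cDC2-core dendritic cells.

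The genes lower in dendritic cells than in all 3 other labels included HMOX1, heme oxygenase, with 0 UMIs in dendritic cells against 64.8 CPM in CD14+ monocytes, 229.0 in MS4A7+ monocytes and 73.7 in B cells. KLF2, a factor of quiescence and trafficking, stood at 44.3 CPM against 266.8, 375.5 and 862.1 CPM in the same order.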
